A study of Mus musculus with 16 samples.

Results

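Regulatory T cells (Treg) were set against conventional CD4+ T cells (Tcon) of mice given vehicle, so that the 2 subsets could be compared gene by gene in the absence of drug. The libraries were chosen by their labels: 4 Treg libraries (CD4+ FOXP3+) and 4 Tcon libraries (CD4+ FOXP3-) from vehicle mice, 8 of the 16 libraries of a study of venetoclax, a drug that blocks BCL-2. The mice were of the strain B6.Cg-Foxp3tm2Tch/J, in which the Foxp3 transcript also carries GFP behind an internal ribosome entry site, and the genotype is given as WT. They received vehicle for 14 days, and both subsets came from spleen and lymph node, given as 1 source. Replicates 1 to 4 of each subset are described as biological replicates and carry the codes VEH1 to VEH4; that a code marks 1 animal for both subsets is not stated, and the fit took the code as a block. Age, sex, pooling of animals and the way the subsets were isolated are not in the labels used here.

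Treg are CD4+ T cells that restrain immune responses, and the transcription factor FOXP3 defines the lineage. They take up interleukin-2 through a high-affinity receptor of 3 chains and signal through JAK1, JAK3 and STAT5, they display inhibitory and costimulatory receptors such as CTLA-4 and OX40 at rest, and they depend on NF-kB signalling for their development. Resting Tcon of spleen and lymph node are largely naive cells, which are kept alive by interleukin-7 and guided into lymph nodes by CCR7.

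Total reads assigned to genes ran from 22591538 to 25027038 per Treg library and from 22987730 to 23910701 per Tcon library. Levels are given in CPM, which are read counts over the genes present in both deposited tables, brought to 1 common total per library and corrected with 1 set of TMM factors for the 8 libraries; the tables had been normalized separately by the authors. Differences are on the log2(CPM + 0.5) scale, Treg minus Tcon, with the standard error (SE) of limma's fit, and a gene was called where its adjusted p was under 0.05 over 10774 genes. The first principal component, with 79.9% of the variance, separated the subsets. Tcon replicate 3 stood apart from the other 7 libraries on the second (11.4% of the variance; 22.3 against -13.0 to 7.2), and its scaling factor of 0.910 was the lowest of the 8. Ddx3y and Kdm5d, Y-linked genes named after their values were seen, were at 220 and 93.5 CPM in Treg and at 246 and 101 in Tcon of replicate 2, and at no more than 0.0397 CPM in the other 6 libraries.

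Foxp3 checked the labels. The gene (Entrez 20371; chrX:7579676-7595243, GRCm38.p6) stood at 796, 872, 734 and 862 CPM in Treg replicates 1 to 4 and at 32.6, 28.7, 30 and 27.9 in Tcon. Every Treg library was far above every Tcon library, and since FOXP3 defines the labelled subsets, the difference of 4.75 is no finding. Cd4, the coreceptor named in the labels of both subsets, was present in all 8 libraries at 707 to 755 CPM in Treg and 963 to 1093 in Tcon. It was lower in Treg by a log2 difference of -0.52 (SE 0.06, limma adjusted p = 0.000239), with no overlap between the groups. Bulk libraries do not separate a smaller share of cells with a transcript from less transcript per cell; these cannot be told apart for any gene below.

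Of the 10774 genes 5170 were called (48.0%), 2608 higher in Treg (24.2%) and 2562 lower (23.8%). Scaling to the total alone, without TMM, gave 3115 higher and 1728 lower, so the near-even split depended on the scaling. Large differences were lopsided: 781 genes were more than 2-fold higher in Treg (7.25%) and 236 more than 2-fold lower (2.19%), 9.44% of genes in all, and past 8-fold there were 91 and 22. All 4 Treg libraries lay above all 4 Tcon libraries for 2166 genes (20.1%) and below them for 1869 (17.3%). Without Tcon and Treg replicate 3 the count of calls was 6416, and the count past 2-fold 1052.

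**Figure D1:**
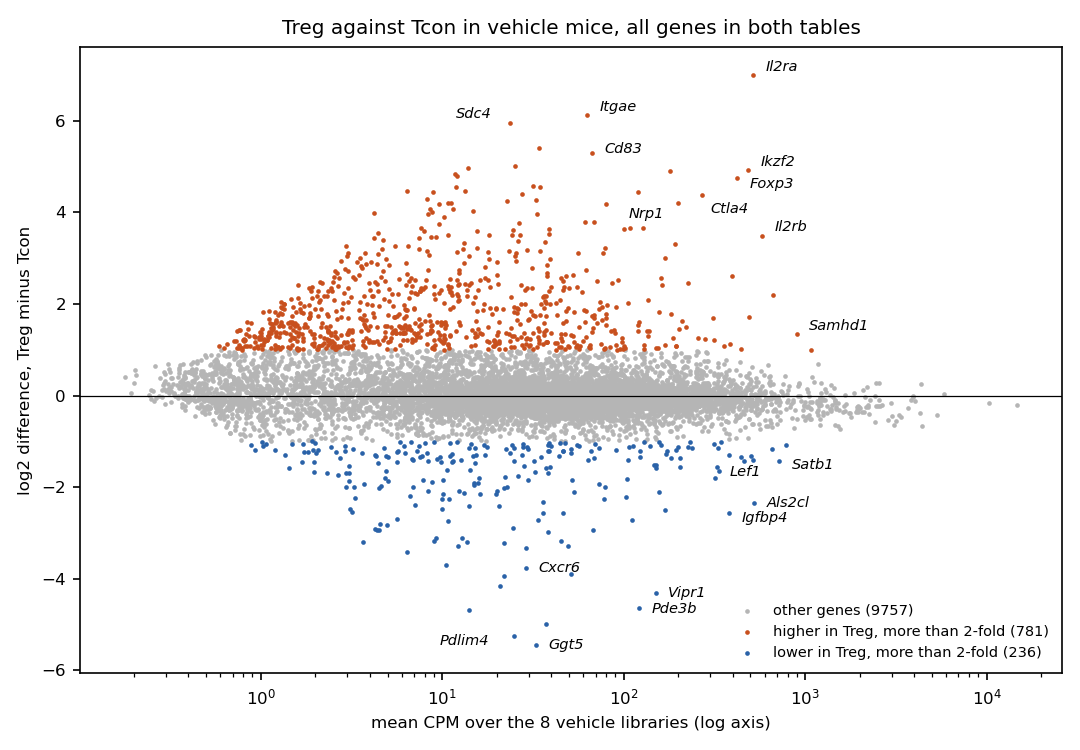
Each point is 1 of 10774 genes; the horizontal log axis is its mean CPM over the 8 vehicle libraries and the vertical axis its log2 difference, Treg minus Tcon. Orange points are the 781 genes called more than 2-fold higher in Treg and blue points the 236 called more than 2-fold lower; Il2ra lies highest at 6.99 and Ggt5 lowest at -5.44.

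Chains of the receptor for interleukin-2 were among the largest differences. Il2ra, the α chain CD25 that gives the receptor its high affinity (Entrez 16184; chr2:11642792-11693194), was at 1061, 973, 1031 and 1039 CPM in Treg and at 8.54, 7.52, 6.29 and 8.09 in Tcon. The groups lay 135-fold apart by their means, and the log2 difference was 6.99 (SE 0.07, limma adjusted p = 4.77e-10). That was the widest on the log2(CPM + 0.5) scale, which understates low genes: Sdc4, the heparan sulphate proteoglycan syndecan-4, was 180-fold apart by its means, at 47.1 ± 6.08 against 0.261 ± 0.0673 CPM (SD, n = 4; log2 5.96). Il2rb, the β chain that carries the signal, stood at 1059 ± 35.4 CPM in the Treg libraries against 95.2 ± 20.1 in those of Tcon (SD, n = 4; log2 3.50). Il2rg, the common γ chain, was not called, with 537 ± 15.6 and 522 ± 22 CPM (SD, n = 4 each; log2 0.04, limma adjusted p = 0.537; named after its value was seen). So 2 of the 3 chains differed and the libraries overlapped for the third.

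Of 39 cytokine receptors, kinases, STAT factors and feedback genes, 24 were higher in Treg (61.5%, against 24.2% of all genes) and 9 lower (23.1%, near the 23.8% of all genes), and their median log2 difference was 0.32, against -0.02 over all genes. Cish, an inhibitor of cytokine signalling that STAT5 switches on, was at 214, 207, 184 and 204 CPM in Treg and at 20.1, 17.8, 10.2 and 15.7 in Tcon, without overlap. Its log2 difference was 3.66 (SE 0.11, limma adjusted p = 6.3e-08), and that of Socs2, of the same family, was 4.55, from 67.2 ± 7.71 against 2.40 ± 0.463 CPM (SD, n = 4). The sequence at the start of Cish is shown because it holds a pair of copies of the palindrome TTCNNNGAA, the form that STAT5 binds, set 2 bases apart and marked in capitals (RefSeq, GRCm38.p6, chr9:107296649-107296678, plus strand).
Cish: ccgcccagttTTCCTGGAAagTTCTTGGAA
Socs3 (log2 0.51; chr11:117969501-117969530, minus strand), a relative chosen after its values were seen, stood at 114 ± 17.5 CPM against 80.2 ± 14.6 (SD, n = 4) and is shown with its single copy.
Socs3: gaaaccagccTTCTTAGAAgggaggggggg
This motif, its own reverse complement, was common: it occurred in 8.25% of 776 promoter windows (300 bases, from 250 before to 50 after an annotated start) of genes more than 2-fold higher in Treg, in 5.75% of 261 windows of genes more than 2-fold lower, in 6.76% of windows of all genes tested and in 8.30% of all windows in the RefSeq table. A match is letters only, and the share in the first set was close to that of all windows. Of the feedback genes and receptor chains searched for this motif 5 had a window, and only Cish and Socs3 held a match. Socs2, Il2ra and Il2rb were among those searched and had no match or no window.

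Receptors for other cytokines were divided. Il12rb1, a chain shared by the receptors for interleukins 12 and 23, stood at 43.8 ± 6.23 CPM in Treg and 10.5 ± 1.11 in Tcon (SD, n = 4; log2 2.00, limma adjusted p = 1.47e-07). Its partner Il12rb2 ran the other way, at 1.17 ± 0.267 and 4.91 ± 1.22 CPM (SD, n = 4; log2 -1.68, limma adjusted p = 4.35e-05). Il10ra was higher in Treg (1.89) and Jak1, the kinase paired with many of these receptors, lower (-0.31, 1054 ± 6.38 against 1306 ± 33.6 CPM). Il7r, the receptor for the survival cytokine of naive cells, was at 221, 274, 276 and 233 CPM in Treg and at 581, 645, 727 and 592 in Tcon. These values did not overlap and lay 2.53-fold apart by their means (log2 -1.34, SE 0.05, limma adjusted p = 2.43e-07).

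Among transcription factors of the Treg program, 18 of 26 were higher in Treg (69.2%, against 24.2% of all genes). Lower were 5 (19.2%, below the 23.8% of all genes), and 3 were not called. More than 2-fold higher were 10, against 7.25% of all genes, and the median was 0.76. Foxp3, which defines the subsets, is counted in the 18 and in the 10. Ikzf2, which encodes Helios (Entrez 22779; chr1:69531207-69687351), was at 871, 1065, 856 and 948 CPM in Treg and at 25.5, 33.7, 24.9 and 38 in Tcon. Each Treg library was far above each Tcon library (log2 4.93, SE 0.08, limma adjusted p = 5.77e-09). Ikzf4, its relative Eos, was at 114 ± 3.56 CPM against 7.85 ± 0.813 (SD, n = 4; log2 3.78). Irf4, Nfil3 and Maf, factors of effector Treg, were higher by 2.38, 2.37 and 1.93. The largest lower member was Id2, which blocks E proteins, at 26.8 to 37.9 CPM in Treg and 107 to 127 in Tcon (log2 -1.92, SE 0.07, limma adjusted p = 2.15e-07). Lef1 and Satb1, which the list shares with that of naive cells, were lower as well (-1.56 and -1.42), and Ets1, the most abundant member at 2316 ± 105 and 2720 ± 154 CPM (SD, n = 4), was not called (limma adjusted p = 0.0548), although edgeR and DESeq2 called it lower (adjusted p = 0.0384 and 0.0107). Of the 5 lower members 3 were called without the TMM scaling, and 3 without replicate 1, 2 or 4.

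Surface receptors of Treg formed the list with the highest median, 3.57: all 24 measured members were higher in Treg (0 were lower in limma, also at an unadjusted p under 0.05, in edgeR and in DESeq2), 23 of them more than 2-fold, and in all 24 every Treg library lay above every Tcon library. Over all genes the shares were 24.2% higher, 7.25% more than 2-fold higher and 20.1% with every Treg library above every Tcon library. The list was drawn from known Treg genes with results of these libraries in view, so its direction is not independent evidence. Ctla4, the inhibitory receptor that strips CD80 and CD86 from dendritic cells, was at 478, 582, 452 and 560 CPM in Treg and at 15.9, 34.1, 17.9 and 34.6 in Tcon. Its Tcon levels fell into a lower pair (replicates 1 and 3) and a higher pair (replicates 2 and 4), all far below Treg (log2 4.39, SE 0.13, limma adjusted p = 7.5e-08). Itgae, the CD103 chain of an integrin that holds T cells at epithelia, was at 117, 132, 101 and 145 CPM against 1.85, 0.957, 0.833 and 1.58 (log2 6.13). Nrp1, Klrg1, Cd83, Tigit and Itgb8 were higher by 4.21, 4.83, 5.31, 3.64 and 4.21, and Izumo1r, the folate receptor 4, had a high level in both subsets (682 ± 52.2 and 110 ± 4.77 CPM, SD, n = 4; log2 2.62). Pdcd1 and Icos, which activated Tcon also carry, differed less, by 1.76 and 1.41.

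**Figure D2:**
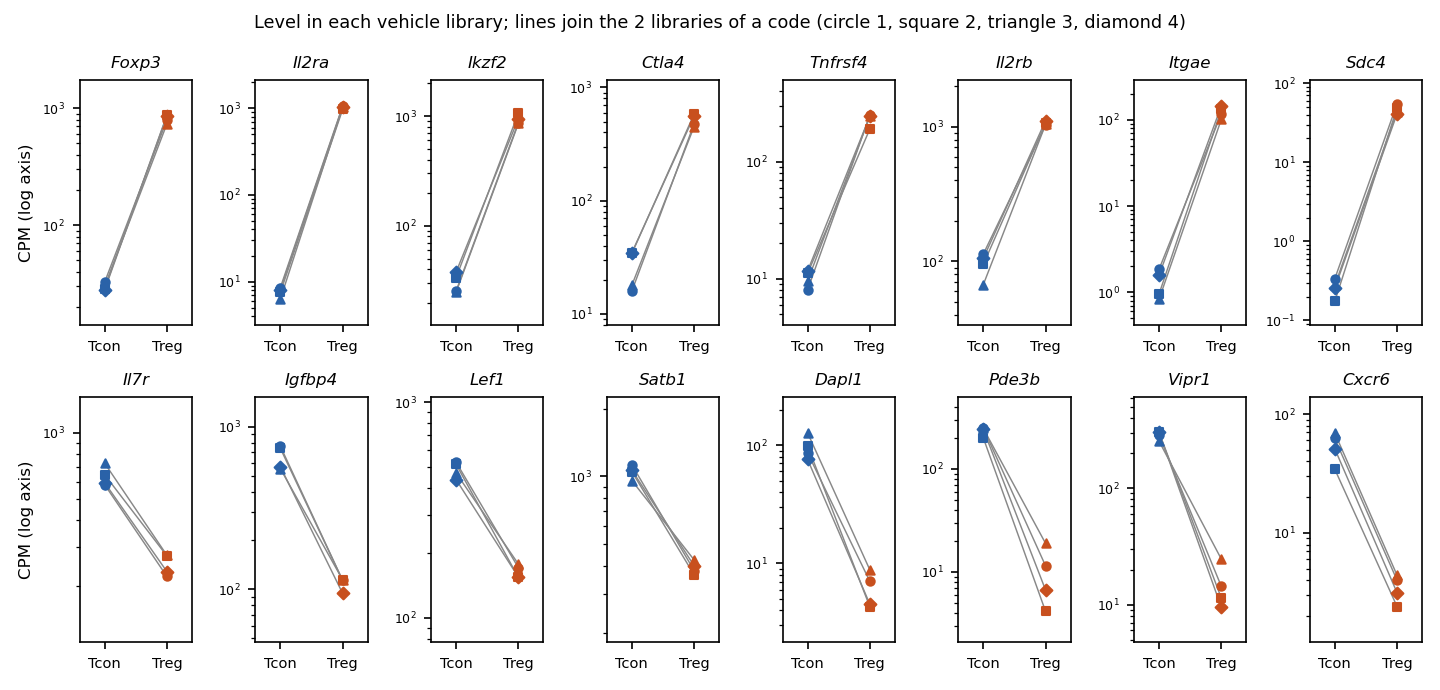
CPM of 16 genes in each vehicle library, with a log axis of its own in every panel; each line joins the Tcon (blue) and Treg (orange) library of 1 replicate code, with circles for code 1, squares for 2, triangles for 3 and diamonds for 4. No gene shown overlaps between the subsets, and in Pde3b and Vipr1 the triangle of Treg replicate 3 lies above the other Treg libraries.

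Tumour necrosis factor receptors were part of this pattern. Tnfrsf4 (OX40) stood at 248, 190, 243 and 244 CPM in Treg and at 8.04, 11.1, 9.57 and 11.6 in Tcon, and Tnfrsf9, also named CD137, at 185 ± 14.8 against 14.5 ± 1.61 (SD, n = 4). Both groups of values were well apart, with log2 differences of 4.46 and 3.64, and those of Tnfrsf1b (TNFR2) and Tnfrsf18 (GITR) were 2.45 and 2.42. Across 34 members of the NF-kB and TNF receptor list 20 were higher in Treg (58.8%, against 24.2% of all genes). Lower were 4 (11.8%, against 23.8%), and the median was 0.54. The 4 lower ones included Tnfrsf1a, the broadly expressed TNFR1 (40.1 ± 2.08 against 56.8 ± 3.83 CPM, SD, n = 4; log2 -0.50), and Map3k14, the kinase NIK (-0.53). Nfkbia, the inhibitor IκBα that NF-kB itself induces, was higher by 1.08 (486 ± 118 against 229 ± 46.8 CPM, SD, n = 4; limma adjusted p = 1.12e-06), and Bcl3, an atypical member of that inhibitor family, by 1.14.

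The classical NF-kB site of 10 bases, with the fifth free and read on either strand, was rare in promoter windows. They occurred in 12 of 776 windows (1.55%) of the genes more than 2-fold higher in Treg, in 48 of 11139 windows (0.431%) of all genes tested and in 0 of 261 of the genes more than 2-fold lower, which allows a share of up to 1.15%; over the whole RefSeq table the share was 0.411%. The 12 windows belong to 10 genes, since some genes have several starts. The genes with a match in the first set included 3 named after their values were seen: Csf1, a growth factor for macrophages (log2 3.50, 33.6 ± 5.99 against 2.57 ± 0.878 CPM, SD, n = 4), Mdfic, a regulator of transcription (3.11), and Nfkb2, the p100 subunit of NF-kB (1.00). They are shown with Nfkbia and Gbp5, 30 bases each with the site in capitals, to let the shared letters be seen; in Mdfic the site overlaps a copy of TTCNNNGAA, and the other stretches hold no second motif of those searched.
Csf1: gggccttgagGGAAAGTCCCtaggggccag
Mdfic: tggtttgaggGGGACTTTCCcagaaaggtt
Nfkbia: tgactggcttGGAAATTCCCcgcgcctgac
Nfkb2: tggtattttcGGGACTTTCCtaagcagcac
Gbp5: ggagaggaaaGGAAATTCCCagggctggcc
In GRCm38.p6 they lie at chr3:107760604-107760633 (minus strand), chr6:15720431-15720460 (plus), chr12:55492657-55492686 (minus), chr19:46305695-46305724 (plus) and chr3:142496847-142496876 (plus), and each is written on the strand of its gene. Of the other motifs searched, the forkhead letters TGTTTAC were in 3.74% of windows of genes more than 2-fold higher and in 2.59% of all tested. The AP-1 letters TGANTCA were in 6.70% and 4.69%, and the TCF and LEF letters CTTTGAT in 1.80% and 2.40%. Over the whole RefSeq table the shares were 3.65% for forkhead, 7.81% for AP-1 and 3.73% for TCF and LEF, so none of these 3 stood far above all windows in the first set. Whether the composition of the promoters differed between these sets was not tested.

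Molecules of suppression were mostly higher in Treg: 16 of 18 measured members, 12 of them more than 2-fold, and 2 were lower. These shares were 88.9% higher and 11.1% lower, against 24.2% and 23.8% of all genes. Penk, the precursor of enkephalin peptides, was at 49.3 ± 9.25 CPM in Treg and 1.05 ± 0.369 in Tcon (SD, n = 4; log2 5.02, limma adjusted p = 6.75e-09). Il1r2, the decoy receptor for interleukin-1, was at 15, 12.7, 13.7 and 28.7 CPM in Treg and at no more than 0.642 in Tcon, with Treg replicate 4 the highest. Nt5e, the CD73 enzyme that makes adenosine, stood at 276 ± 25.8 against 46.7 ± 7.53 (SD, n = 4; log2 2.56). The 2 lower members were Prf1, the pore protein perforin (-1.99), and Pde3b, a phosphodiesterase that breaks down cyclic AMP (-4.64), which FOXP3 is known to repress. Lrrc32, which holds latent TGF-β at the surface, was listed only in the Treg table, at 358 ± 18.8 CPM (SD, n = 4), so it has no tested difference. Areg, an epithelial growth factor, was likewise only there, at 2.30 ± 0.968 CPM (SD, n = 4).

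For TGF-β signalling 8 of 18 genes were higher in Treg (44.4%, against 24.2% of all genes) and 7 lower (38.9%, against 23.8%). The receptor chains split: Tgfbr1 was at 178 ± 7.2 CPM in Treg and 60.8 ± 3.71 in Tcon (SD, n = 4; log2 1.54, limma adjusted p = 9.54e-08), while Tgfbr2 was at 261 ± 11.1 and 504 ± 48.4 (-0.94). Tgfbr3, the coreceptor betaglycan, fell furthest on the Treg side, at 28.3, 22.6, 36.6 and 30.2 CPM against 211, 198, 178 and 189 (-2.72). Every Treg library was below every Tcon library for both Tgfbr2 and Tgfbr3. Bmpr2, a receptor for bone morphogenetic proteins, and Tgif1, a repressor of SMAD signalling, were higher by 1.64 and 1.31.

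Leaving aside the lists of cell type markers, genes of naive and resting T cells had the lowest median, -1.01. Of 26 genes 19 were lower in Treg (73.1%, against 23.8% of all genes), 14 of them more than 2-fold. Only 1 was higher (3.85%, against 24.2%). Lef1, the partner of TCF1 in naive cells, was at 171, 154, 177 and 154 CPM in Treg and 526, 515, 469 and 437 in Tcon, with no overlap (log2 -1.56, SE 0.06, limma adjusted p = 2.91e-07). Igfbp4, a binding protein of insulin-like growth factors, was at 109 ± 9.71 against 654 ± 109 CPM (SD, n = 4; -2.57), and Als2cl at 171 ± 13 against 880 ± 145 (-2.35). Ccr7, the lymph node homing receptor, was lower by a log2 difference of -1.01 and Klf2, which maintains CCR7 and S1PR1, by -0.60. Id3 was the 1 higher member (0.77), opposite to Id2. Tcf7, which encodes TCF1, was not analysed here.

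The largest differences in the direction of Tcon were held by genes of varied roles. Ggt5, which cleaves glutathione conjugates and leukotriene C4, was at 1.6, 0.0429, 3.81 and 0.471 CPM in Treg and at 60.3, 73.0, 59.0 and 63.6 in Tcon (log2 -5.44, SE 0.44, limma adjusted p = 1.73e-05). Pdlim4, an actin-linked adaptor, was at 1.08, 0.172, 3.25 and 0.196 CPM against 46.7, 49.1, 52.1 and 47.3 (-5.25). In both genes the Tcon libraries were even and the Treg libraries were not: replicate 3 was highest and replicate 1 next. Pde3b stood at 11.4, 4.12, 18.9 and 6.64 CPM in Treg against 234 ± 23 (SD, n = 4) in Tcon, and Vipr1, the receptor for vasoactive intestinal peptide, at 14.3, 11.3, 24.6 and 9.47 against 285 ± 22.8 (-4.30). Atp8b4, a lipid flippase (-4.99), App, the amyloid precursor protein (-4.15), Lypd6b (-3.94) and Dapl1 (-3.90) completed the lowest at levels over 30 CPM in Tcon.

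For the 15 lowest genes taken by the naming rule, the Treg level as a percentage of the Tcon level of the same code had a median of 5.03% in code 1, 3.76% in code 2, 7.63% in code 3 and 3.85% in code 4. Treg replicate 3 held the highest percentage in 12 of the 15 genes, and codes 2 and 4 the lowest in 7 each. For Ggt5 the percentages were 2.65%, 0.0588%, 6.46% and 0.741%. In the opposite direction the medians of the 15 highest genes ran from 1.81% to 2.49%, with code 1 highest in 6 genes and code 4 in 5. Foxp3 was lowest in the same Treg replicate 3, at 734 CPM. The part of such trace levels in these differences was not tested; with codes 2 and 4 alone the log2 differences of Ggt5 and Pdlim4 were -6.57 and -6.16.

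Genes of natural killer and innate lymphoid cells moved with this group. Klrd1, the CD94 receptor, was at 0.520, 0.129, 1.94 and 0.314 CPM in Treg and at 22.5, 24.4, 40.2 and 22.5 in Tcon (log2 -4.67, SE 0.18, limma adjusted p = 2.67e-07), and Klrb1c, the NK1.1 antigen, at 1.38 ± 0.244 against 16.7 ± 3.36 (SD, n = 4; -3.18). Among the 5 measured markers of these cells, 3 were lower in Treg and 1, Kit, higher, and their summed level was 11.8 to 16 CPM in Treg and 75.6 to 94.4 in Tcon. Zbtb16, a factor of innate-like T cells, was listed only in the Tcon table, at 6.74 ± 1.56 CPM (SD, n = 4). The part of these cells in the lower genes was not tested. Markers of other cell types were present too. Cd79b, a chain of the B cell receptor, was higher in Treg (14.1 ± 2.05 against 0.856 ± 0.312 CPM, SD, n = 4, log2 3.45). Only 4 of the 14 listed B cell markers were in both tables. They summed to 25.8 to 30.4 CPM in Treg and 8.09 to 10.2 in Tcon, with 3 higher. Ms4a1 was only in the Treg table, at 0.339 ± 0.34 CPM, and Cr2 only in the Tcon table, at 0.305 ± 0.0971 CPM (SD, n = 4). Among 12 myeloid and dendritic markers 2 were higher and 5 lower, with sums of 71.9 to 97.5 CPM in Treg and 37.1 to 61.5 in Tcon. Cd74, the invariant chain (45.3 ± 9.6 against 5.97 ± 3.51, SD, n = 4), led the sums in Treg. Cst3, the other higher marker (28.6 ± 1.29 against 22.3 ± 5.27), led them in Tcon. The lower ones were the MHC class II genes H2-Aa (-0.77), H2-Ab1 (-0.86) and H2-Eb1 (-0.75), with Itgam (-1.31) and Cd68 (-0.41). A further 5 of the 21 listed markers were only in the Tcon table, at means of no more than 0.684 CPM. For CD8 T cells 1 of 3 was higher and 2 lower, with sums of 55.2 to 60.5 CPM in Treg and 79.9 to 100 in Tcon. These sums were mostly the transcription factor Runx3, at 42.5 ± 3.11 and 75.0 ± 13.5 CPM (SD, n = 4). The coreceptor chain Cd8b1 was at 14.9 ± 1.22 and 18.6 ± 4.12 CPM, and Cd8a at 1.04 ± 0.405 and 0.283 ± 0.143 CPM (SD, n = 4). Of 3 genes of stroma and endothelium 2 were higher and 1 lower; their sums, 216 to 256 CPM in Treg and 247 to 282 in Tcon, were nearly all Pecam1 (230 ± 19.4 and 266 ± 16.3, SD, n = 4), the lower member, whose call was lost without the TMM scaling, without the block and without replicate 2 or 4 (limma adjusted p = 0.109, 0.0529, 0.0705 and 0.0676). Of 3 erythroid and platelet genes none was called by limma, edgeR or DESeq2, with 0 at an unadjusted p under 0.05. Without the TMM scaling the lower counts were 1 for CD8 T cells and 0 for stroma. No marker of gamma delta T cells was in both tables.

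Receptors for trafficking went 12 higher (42.9%) and 6 lower (21.4%) of 28 (median 0.12); over all genes these shares were 24.2% and 23.8%, so the lower share was near that of all genes. Ccr6, which follows CCL20 to epithelia, stood at 62.3, 46.6, 47.8 and 55.0 CPM in Treg and at 2.61, 2.48, 1.06 and 2.31 in Tcon (log2 4.39, SE 0.14, limma adjusted p = 9.54e-08). Gpr15, a homing receptor of the large intestine, Ccr8 and Ccr4 were higher by 3.97, 3.6 and 2.84, and Cxcr5, the receptor for B cell follicles, by 2.02. Cxcr6 ran against them: it was at 4.00, 2.40, 4.41 and 3.14 CPM in Treg and 62.3, 34.4, 69.2 and 51.0 in Tcon, a log2 difference of -3.76 (SE 0.08, limma adjusted p = 1.2e-08). None of these receptors overlapped between the subsets.

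Effector, memory and helper genes were 15 higher (62.5%) and 6 lower (25%) of 24 (median 0.54), the latter again near the share of all genes. Ahnak, a large scaffold protein of antigen-experienced T cells, was at 988, 1302, 938 and 1129 CPM in Treg and at 252, 292, 133 and 321 in Tcon, and S100a4 and S100a6, calcium-binding proteins of memory cells, were higher by 1.67 and 1.48. On the other side stood Cd40lg, through which helper cells license B cells, at 26.8 ± 2.06 against 130 ± 16.8 CPM (SD, n = 4; -2.25), and Ccl5, a chemokine of cytotoxic and memory cells (-1.42). The cytokine genes Il2, Il4, Il21 and Csf2 were listed only in the Tcon table.

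In T cell receptor signalling 17 of 38 genes were lower in Treg (44.7%, against 23.8% of all genes) and 9 higher (23.7%, near the 24.2% of all genes), with a median of -0.14. Themis, an adaptor of the receptor's signal, was at 56.4, 53.1, 71.9 and 52.7 CPM in Treg and at 251, 241, 305 and 219 in Tcon, with no overlap (log2 -2.11, SE 0.05, limma adjusted p = 1.68e-08). Cd247, the ζ chain, was lower by a log2 difference of -0.47 and the kinase Lck by -0.24. The call of Lck was lost without the TMM scaling (limma adjusted p = 0.0563) and without replicate 1, 2 or 4 (0.0538 to 0.0591). The 9 higher genes were led by the receptors Ctla4, Tigit, Pdcd1 and Icos given above. Among 17 genes of CD4 T cell identity, 10 were lower (58.8%) and 3 higher (17.6%), against 23.8% and 24.2% of all genes (median -0.20). Thy1 was at 522 ± 38.5 against 759 ± 35.5 CPM (SD, n = 4, log2 -0.54), while Cd2 and Cd27 were higher by 0.62 and 0.49. Without the TMM scaling 6 of the 17 were lower and 5 higher.

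Immediate early genes, which activation and cell handling switch on within minutes, varied widely between replicates. Of 34 such genes 13 were higher in Treg (38.2%, against 24.2% of all genes) and 6 lower (17.6%, against 23.8%). Without replicate 3 these counts were 16 and 13, while over all genes 3261 were called higher and 3155 lower. Without the block 8 were higher. Fos was at 367, 823, 551 and 1022 CPM in Treg and 537, 852, 172 and 718 in Tcon, and Junb at 571, 1063, 566 and 1474 against 997, 1228, 462 and 1807. The subsets overlapped, and neither gene was called (limma adjusted p = 0.294 and 0.186). Tcon replicate 3 was lowest in both, and without replicate 3 Junb was called lower in Treg (log2 -0.43, limma adjusted p = 9.15e-05). Dusp4, a phosphatase of the ERK pathway, and Rgs1, which dampens chemokine receptors, were different: Dusp4 was at 59.8, 50.2, 58.3 and 81.2 CPM against 2.31, 2.70, 1.43 and 5.73 (log2 4.26), and Rgs1 at 348 ± 24.2 against 36.2 ± 11.3 (SD, n = 4; 3.30). Fosl2 was the largest lower member (-1.15). Of 10 Kruppel-like factors 4 were higher (40%) and 3 lower (30%), against 24.2% and 23.8% of all genes. Klf9 was at 1.52 and Klf13 at -0.45. The lower count was 5 without replicate 3 and 1 without replicate 4, where the call of Klf13 was lost (limma adjusted p = 0.0555).

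**Figure D3:**
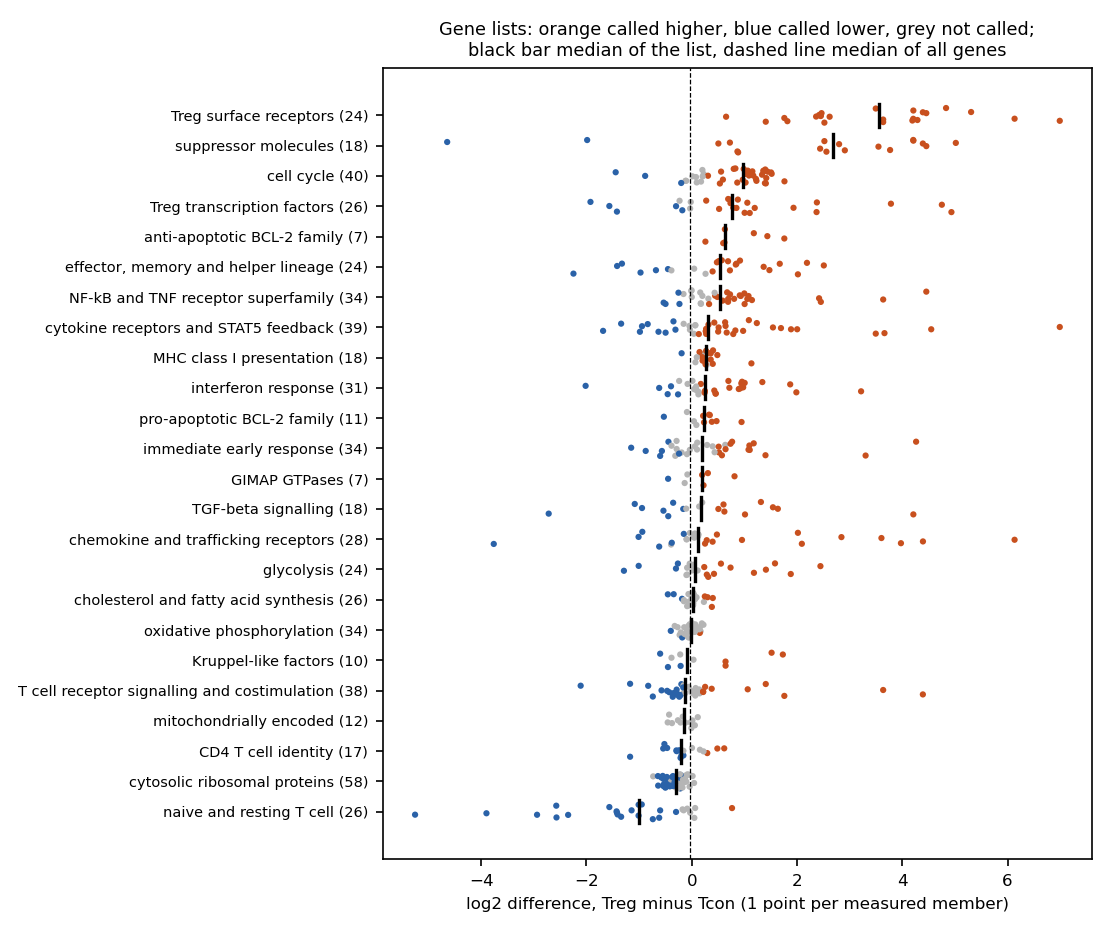
Each point is 1 measured gene of a list, placed by its log2 difference (Treg minus Tcon) on the horizontal axis, with the number of measured genes in brackets; orange points were called higher in Treg, blue points lower and grey points were not called. The black bars are list medians, from 3.57 for Treg surface receptors to -1.01 for naive and resting genes, and the dashed line is the median of all genes, -0.02.

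The BCL-2 family, the target class of the drug tested elsewhere in the series, was measured here without it. These proteins set the threshold for mitochondrial cell death: the anti-apoptotic members hold back BAX and BAK, and BH3-only proteins release them. All 7 anti-apoptotic members measured were higher in Treg (median 0.63), against 24.2% of all genes. Lower were 0 in limma, also at an unadjusted p under 0.05, in edgeR and in DESeq2. Bcl2 (Entrez 12043; chr1:106538176-106714290) was at 349, 363, 338 and 314 CPM in Treg and at 294, 241, 180 and 184 in Tcon. The groups did not overlap, but the Tcon libraries spread widely, and the log2 difference was 0.63 (SE 0.10, limma adjusted p = 0.000808). Bcl2l1, which encodes BCL-XL, differed more, at 73.5, 58.1, 65.8 and 67.0 CPM against 22.4, 18.9, 16.8 and 18.7 (1.76, SE 0.07, limma adjusted p = 2.73e-07). Mcl1 differed least, at 722 ± 39 against 604 ± 56.6 CPM (SD, n = 4; 0.26, SE 0.05, limma adjusted p = 0.00443). Bcl2l2 and Bcl2a1b were higher by 1.44 and 1.18; the Bcl2a1 copies are nearly identical, so reads could have been split among them, and their separate values are uncertain.

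Per kilobase of exon, levels of the anti-apoptotic genes can be set side by side within a subset. The lengths are those of all exons of a gene together, 817 bases for Bcl2a1b and 9157 for Bcl2. The transcripts in use may be shorter, and the value of Bcl2a1b is uncertain as said above, so its place in the order is too. In Treg Mcl1 came first at 211 CPM per kb, then Bcl2a1b at 64.3, Bcl2 at 37.3 and Bcl2l1 at 17; in Tcon the levels were 177, 28.3, 24.5 and 4.94. Bcl2a1b and Bcl2 lay close together in Tcon, and their library values overlapped there. For the pro-apoptotic genes 7 of 11 were higher in Treg (63.6%, against 24.2% of all genes). Only 1, Bik, was lower (9.09%, against 23.8%), and none passed 2-fold. Without replicate 4 the count called higher was 2, without replicate 1 it was 3 and without the block 4. The call of Bik was lost without replicate 1, 2 or 4 (limma adjusted p = 0.0579 to 0.0701) and in DESeq2 (0.0708). Bid, the BH3-only protein that death receptors cleave, was at 31.1 ± 0.486 against 15.9 ± 1.17 CPM (SD, n = 4; log2 0.95, limma adjusted p = 8.04e-06). Bcl2l11, which encodes BIM, was not called: it stood at 75.5, 81.8, 76.4 and 77.6 CPM in Treg and 81.7, 89.8, 58.9 and 66.2 in Tcon, which overlapped (0.09, limma adjusted p = 0.437).

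**Figure D4:**
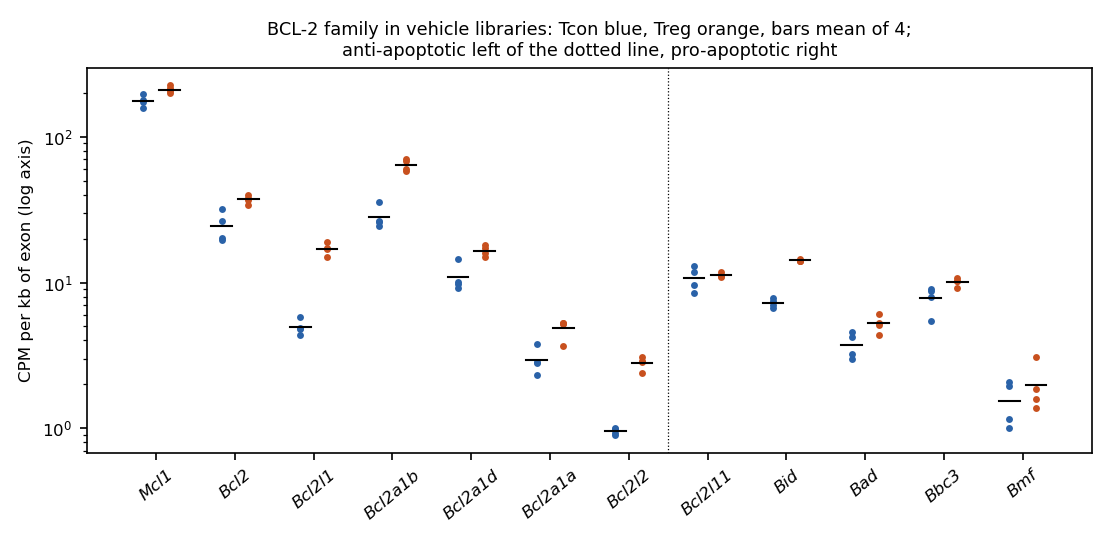
CPM per kilobase of exon on a log axis for BCL-2 family genes, with 4 Tcon libraries in blue and 4 Treg libraries in orange for each gene and a bar at their mean; genes left of the dotted line are anti-apoptotic. Mcl1 is highest in both subsets (211 in Treg, 177 in Tcon), and Bcl2l1 shows the widest gap (17 against 4.94).

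Cell cycle genes were higher in Treg for 28 of 40 members (70%, against 24.2% of all genes), 19 of them more than 2-fold. They were lower for 3 (7.5%, against 23.8%), with a median of 0.98. Mki67, the Ki-67 antigen of dividing cells, was at 56.4, 45.0, 33.0 and 61.2 CPM in Treg and at 17.3, 14.0, 7.59 and 19.0 in Tcon. Replicate 3 was lowest in both subsets, and each Treg library was over each Tcon library (log2 1.76, SE 0.08, limma adjusted p = 6.36e-07). Bub1b, Aurkb, Tpx2 and Ccna2, genes of mitosis, were higher by 1.52, 1.51, 1.44 and 1.42, all 4 at under 10 CPM in both subsets, and among members with a mean of at least 10 CPM 6 were called higher. Abundant genes of DNA replication differed less: Mcm6 was at 134 ± 8.79 against 90.5 ± 4.79 CPM (SD, n = 4; 0.56) and Pcna was lower in Treg (-0.20), a call lost without the TMM scaling, without the block and without replicate 1 or 2 (limma adjusted p = 0.0836, 0.166, 0.0656 and 0.0745). The other 2 lower members were Stmn1, a regulator of microtubules, at 21.9 ± 4.43 against 40.9 ± 8.9 CPM (SD, n = 4; -0.88, limma adjusted p = 0.00179), and Kif23, a motor of the last step of division, at 5.06 ± 0.646 against 14.7 ± 2 CPM (SD, n = 4; -1.44).

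Metabolic lists had medians close to that of all genes, but their shares of called genes differed. Over all genes 24.2% were called higher in Treg and 23.8% lower. In glycolysis 11 of 24 genes were higher (45.8%) and 4 lower (16.7%), with a median of 0.07. The first enzyme Hk2 was at 7.77 ± 1.77 against 1.00 ± 0.144 CPM (SD, n = 4; log2 2.44) and the glucose transporter Slc2a3 at 175 ± 16.1 against 65.4 ± 5.24 (1.41), whereas Pdk1, which holds pyruvate back from mitochondria, was at 222 ± 17.7 against 542 ± 42.7 (-1.29). The abundant Pkm and Ldha were not called (limma adjusted p = 0.61 and 0.221). Oxidative phosphorylation had 1 of 34 genes higher (2.94%) and 2 lower (5.88%), and cholesterol and fatty acid synthesis 4 (15.4%) and 3 (11.5%) of 26. All of these shares were below those of all genes. Without the TMM scaling oxidative phosphorylation had 7 higher and 1 lower, and the synthesis list 1 lower. None of the 12 mitochondrially encoded genes was called by limma or edgeR; 3 were lower at an unadjusted p under 0.05, and DESeq2 called 1 lower. Replicate 3 weighed on these counts: without it 14 genes of oxidative phosphorylation were called higher, 6 of the synthesis list lower, and 4 mitochondrially encoded genes each way. Without replicate 1, 2 or 4 no gene of oxidative phosphorylation was called higher, and 1 of the synthesis list was called lower. The summed level of the mitochondrially encoded genes was 33881 to 42389 CPM in Treg and 36378 to 68064 in Tcon.

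Genes of cytosolic ribosomal proteins were lower in Treg for 32 of 58 (55.2%, against 23.8% of all genes), with a median of -0.29, and none passed 2-fold. Higher in Treg were 0 in limma, also at an unadjusted p under 0.05, in edgeR and in DESeq2. Rps29, of the small subunit, was at 1129, 1038, 1328 and 1013 CPM in Treg and 1670, 1506, 2608 and 1425 in Tcon (log2 -0.64, SE 0.09, limma adjusted p = 0.000521). Rpl12, of the large one, was at 2299, 2193, 2606 and 2202 CPM against 3284, 2960, 6283 and 2774 (-0.64, SE 0.15, limma adjusted p = 0.00835). Tcon replicate 3 was far above the other Tcon libraries in both genes, while the other 3 still lay above all Treg libraries. Such separation of the subsets was found for 12 of the 58 genes, against 17.3% of all genes. Rpl13a and Rps7 were called lower although their libraries overlapped between the subsets. Without replicate 3 there were 40 genes lower and 1 higher, with a median of -0.17, without replicate 1 there were 19 lower, and without the replicate block 8. The call of Rpl12 was lost without the block (limma adjusted p = 0.0516) and in DESeq2 (0.0897).

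Interferon response genes were higher in Treg for 18 of 31 (58.1%, against 24.2% of all genes). They were lower for 5 (16.1%, against 23.8%), with a median of 0.25. Gbp3, a guanylate-binding protein that acts against microbes inside cells, was at 143 ± 11.4 CPM in Treg and 14.9 ± 0.3 in Tcon (SD, n = 4; log2 3.22, limma adjusted p = 1.05e-08), and Gbp5 at 130 ± 4 against 32.4 ± 2.07 (1.99); similar copies of these genes may share reads. Oas2, a sensor of double-stranded RNA, ran the other way at 9.20, 6.27, 7.50 and 9.78 CPM against 34.1, 28.6, 26.2 and 53.3 (-2.02, SE 0.11, limma adjusted p = 1.57e-06). Samhd1 and Ly6e had high levels in both subsets (1288 ± 71.8 against 508 ± 28.7 and 1429 ± 141 against 715 ± 98.3 CPM, SD, n = 4), with differences of 1.34 and 1.01. In the presentation of antigen by MHC class I, 12 of 18 genes were higher (66.7%) and 1 lower (5.56%), with a median of 0.27. Nlrc5, the transactivator of these genes, was higher by 0.49 (571 ± 41 against 412 ± 67.8 CPM, SD, n = 4), and H2-K1 and B2m were not called (limma adjusted p = 0.0829 and 0.0518), while edgeR (0.0483 and 0.041) and DESeq2 (0.00765 and 0.0073) called both higher. The 1 lower gene was not called without the TMM scaling, without the block or without replicate 1 or 2. Of 7 GIMAP GTPases, survival factors of lymphocytes, 4 were higher (57.1%), led by Gimap7 (0.81). Gimap6 was the 1 lower (-0.45), which is 14.3% of the list. Without the block, or without replicate 1, 2 or 4, 2 were higher.

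Genes next to the defining genes were compared last, within 200 kb, in 6 neighbourhoods chosen after their values were seen. In 2 of them the neighbours differed little: of 6 genes around Il2ra, Il15ra was higher (0.63), Rbm17 lower (-0.27) and the other 3 neighbours were not called, and of 7 around Ccr8 only Rpsa was called beside it (-0.28), a call lost without the TMM scaling, without the block and without replicate 1, 2 or 4 (limma adjusted p = 0.076, 0.146 and 0.0944 to 0.14). Around Foxp3 11 genes were measured in this window. Syp, which encodes a synaptic vesicle protein (chrX:7638580-7653256), was at 44.0, 40.9, 43.1 and 46.6 CPM in Treg and 1.81, 1.52, 1.71 and 2.27 in Tcon, nearly as far apart as Foxp3 itself (log2 4.25, SE 0.08, limma adjusted p = 1.16e-08). Plp2 (1.58) and Ppp1r3f (0.84) were higher too. Ccdc22, whose annotated model overlaps the end of Foxp3 at chrX:7593809-7605420, was lower in Treg (39.0 ± 2.37 against 56.0 ± 1.32 CPM, SD, n = 4; -0.52); strand use in counting is not given, so reads of the overlap cannot be told apart. In the interleukin-1 receptor cluster of chromosome 1, adjacent genes ran in opposite directions. Il1rl1, the receptor for interleukin-33, was at 17.1, 15.1, 11.9 and 20.8 CPM in Treg and at most 0.589 in Tcon (4.29), while Il1rl2, the receptor for interleukin-36, was at 1.00, 1.03, 1.47 and 0.825 CPM in Treg and 21.9, 21.0, 19.2 and 17.1 in Tcon (-3.69, SE 0.12, limma adjusted p = 9.18e-08). On the other side of Il1rl1 lay Il18r1 and Il18rap, the receptor chains for interleukin-18, both lower in Treg (-0.63 and -0.84). Tnfrsf4 and Tnfrsf18 adjoin on chromosome 4, and of 18 genes there C1qtnf12 (1.79) was the next highest. Ctla4 and Icos were higher in Treg beside Cd28, the activating receptor of the same family, which was lower (370 ± 22.8 against 429 ± 28.4 CPM, SD, n = 4; -0.21, limma adjusted p = 0.00728), a call lost without the TMM scaling (0.0541).

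**Figure D5:**
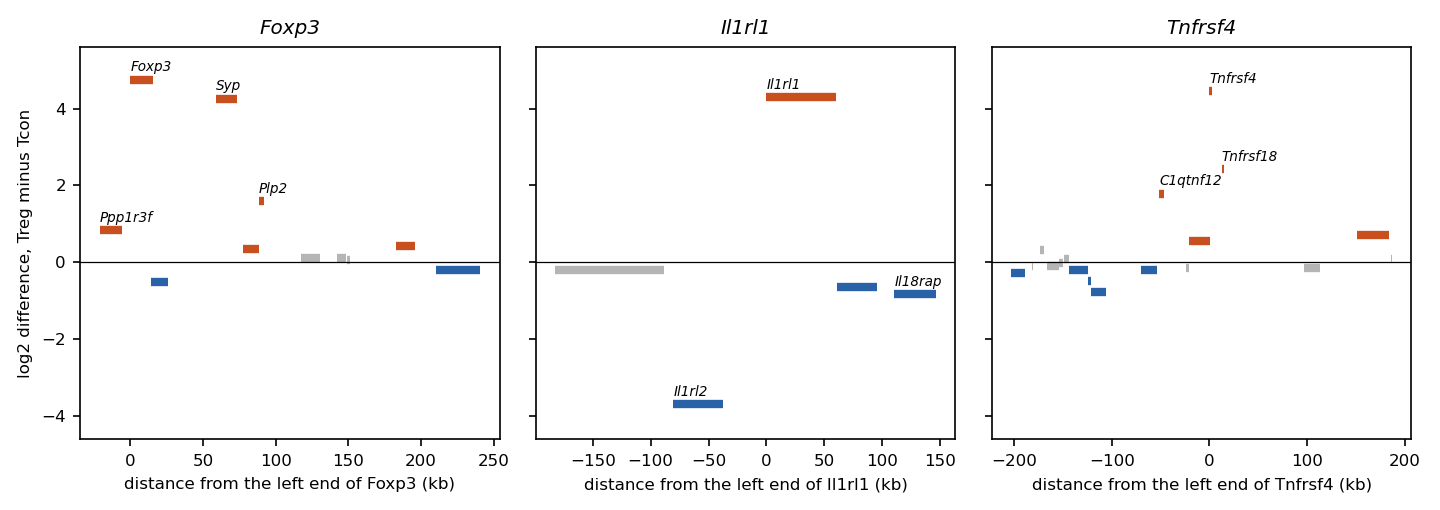
Genes within 200 kb of Foxp3, Il1rl1 and Tnfrsf4, each drawn as a bar from its left to its right end; the horizontal axis is the distance in kb from the left end of the named gene and the vertical axis the log2 difference, Treg minus Tcon. Orange was called higher in Treg, blue lower and grey not called; Syp at 4.25 lies beside Foxp3, and Il1rl2 at -3.69 beside Il1rl1 at 4.29.

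Genes listed in only 1 of the tables could not be compared. The Treg table alone held 293 genes, of which 89 had a mean of at least 1 CPM and 7 of at least 10, and the Tcon table alone held 397, of which 54 and 2 did. Lrrc32 had the highest level of the first set, and Lars2, a mitochondrial leucyl-tRNA synthetase, of the second, at 609 ± 103 CPM (SD, n = 4). The labels and headers do not say what decided whether a gene was listed, so absence from a table is not a level of 0.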

How the data were processed

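RNA-seq libraries of spleen and lymph node T cells were sequenced on an Illumina NovaSeq, and the submitters' processing notes name HISAT2, SAMtools and the mouse build mm10; counter, annotation, strand and the filter on genes are not given there. The authors deposited 1 table per subset, whose signal values are gene counts divided by 1 size factor per library, as the values show. The tables also hold the authors' own log2 fold changes and p-values for the drug, deposited beside them and not used here. Each value divided by the smallest nonzero value of its column gave whole reads for 100% of values (tolerance 0.01). The 10774 genes in both tables were scaled jointly with TMM (edgeR 4.0.16) and fitted with limma 3.58.1 (trend, log2(CPM + 0.5), replicate code as a block, Benjamini-Hochberg adjustment, threshold 0.05). Both edgeR (quasi-likelihood) and DESeq2 1.42.0 were run on the recovered reads as alternatives; edgeR called 5149 genes. The codes paired the libraries: deviations from the subset means correlated at 0.435, 0.759, 0.567 and 0.684 within codes (8162 genes of at least 10 CPM), and each library correlated best with its own code. On simulated data limma recovered 74.6% of genes changed by 0.5 on the log2 scale and 98.5% of those changed by 1, with 6 false calls. Only 67 genes were changed by 0.5, 67 by 1 and 66 by 2, with equal spread in both subsets and no library set apart. The real data differed: 5170 genes were called, and the median SD on the log2 scale was 0.144 in Tcon against 0.09 in Treg. The simulated shares therefore need not hold for them.

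The members and the 31 gene lists were chosen with earlier results of these data known. Genes were named by rule: the 15 largest called differences in each direction with a mean of at least 10 CPM and 1 sign in all 4 pairs, a few genes central to Treg biology, up to 6 largest called and 3 most abundant members of each list, the 2 largest of the rarer direction, and the most abundant genes of 1 table. Exceptions are said in the text, and a few genes the rule would name are not reported here. Coordinates and promoter windows came from RefSeq for GRCm38.p6, the patch release of the mm10 build. Exon lengths are the union of all exons of a gene in the GENCODE basic annotation. Motifs were searched on both strands in windows of 300 bases, which 8710 of the 10774 genes had.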

Additional observations from a re-analysis of the deposited data

Results flagged for a closer look

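Among the genes named, 292 groups of 4 libraries were checked for a library far from the other 3 of its subset, and 21 had one; chance alone gives about 1 in 20. Tcon replicate 3 held 7 of them: Klrd1 (40.2 CPM) and Rpl12 (6283 CPM) were high there, while Cd4 (963 CPM), Ly6e (569 CPM), Tnfrsf1a (51.1 CPM), Bcl3 (16.3 CPM) and Aurkb (0.278 CPM) were low. Treg replicate 4 held 5, with Il1r2 (28.7 CPM), Hk2 (10.4 CPM), Nfil3 (33.9 CPM) and Bid (31.8 CPM) high and Igfbp4 (94.5 CPM) low. The Y-linked Ddx3y and Kdm5d stood apart in replicate 2 of both subsets, at 220 and 93.5 CPM in Treg and 246 and 101 CPM in Tcon. Klrb1c (11.7 CPM) and Pde3b (200 CPM) were low in Tcon replicate 2, and Tnfrsf4 (190 CPM) was low in Treg replicate 2. In Treg replicate 3 Cd40lg (29.9 CPM) was high and S100a6 (30.7 CPM) low.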

How the results depend on the processing

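The 19 alternatives, 3 of them chosen after seeing the data (replicates 2 and 4 alone, and edgeR without replicate 3 or with replicates 2 and 4 alone), reversed none of the 146 named genes; 8 lost the call and 6 gained it in at least 1 of them. Restricting the test to genes with a mean of at least 10 CPM left 490 genes called past 2-fold, against 1017. No other alternative moved either total by more than 1.5 times: the count of calls was 3951 without the replicate block, against 5170 with it, and 4609 in DESeq2. Leaving out 1 replicate gave 3931 to 6416 calls and 1012 to 1052 past 2-fold. The highest count came without replicate 3, where limma's prior carried 14.188 degrees of freedom against 5.236 with all libraries; edgeR without replicate 3 called 6443. Without the block, calls among named genes were lost for Pcna, Pecam1, Rpl12 and Rpsa in limma. The number of animals behind each library is not given. The main fit took the code as a block, so its p-values rest on the spread of the 4 Treg minus Tcon differences within codes, moderated by limma's prior.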
